A study of Mus musculus with 20 samples.

Results

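The TGF-beta genes described here were Tgfb2, Tgfb3, Tgfbr1, Tgfbr2, Smad3, Smad6, Smad7, Skil, Ltbp1 and Tgif1, 10 of the 21938 protein-coding genes annotated in GENCODE vM21 on the assembled chromosomes. They were chosen by name, as a list of ligands, receptors, signal transducers and inhibitors of 1 pathway. Earlier results of these data were known at that choice. The rule that gives these genes their peaks uses no measured level. H3K27ac, a histone mark of active promoters and enhancers, had been profiled by ChIP-seq in freshly dissected face tissue from wild-type mouse embryos (mixed cells of each tissue), with no treatment in any group. The 10 libraries analysed were the medial nasal plate, lateral nasal plate, mandibular process and maxillary process at e11.5, and the nose with the same jaw processes at the later stages, e13.5 and e15.5. There was 1 library for each region and stage, so the libraries of a stage are different tissues and p-values over them measure the spread between tissues. A peak counted for a gene when it overlapped the gene body, or when the gene had the nearest protein-coding transcription start site within 100 kb. By this rule the genes held 387 of the 144852 peaks, and overlapping peaks merged into 97 of the 42346 regions of the series.

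For the 3 libraries of e15.5 the region named in the sample label differs from that in the name of the deposited peak list. The lists of the libraries labelled nose, mandibular and maxillary are named for the maxillary process, the nose and the mandibular process in that order. The labels were used, and each of these is called a library labelled nose, mandibular or maxillary. The lists were unequal in yield, with 6571 to 25941 peaks covering 10.5 to 49.4 Mb of the mm10 genome, and the reads behind them were not known. The acetylated share of a gene is therefore given as base pairs (bp) in its peaks per Mb of all peak sequence in that library. As a check of the tissue, 4 facial mesenchyme genes had a peak covering a start site in 39 of 40 gene and library pairs. This was 10 of 40 for 4 epithelial genes, 5 of 30 for 3 endothelial genes and 1 of 30 for 3 muscle genes. Markers of cartilage had 13 of 30 and of bone 19 of 30, and 5 genes of heart, liver and gut had 0 of 50. The library labelled nose at e15.5 stands apart in that 23.7% of its peaks were under 500 bp, against 2.12% to 14.6% in the other 9.

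TGF-beta ligands are secreted in a latent complex held in the matrix by latent TGF-beta binding proteins such as Ltbp1. Once released, they join a type II receptor (Tgfbr2) to a type I receptor (Tgfbr1), which phosphorylates Smad2 and Smad3, and these enter the nucleus with Smad4. Smad6 and Smad7 are inhibitory Smads that are themselves induced by the signal, and Skil (SnoN) and Tgif1 are nuclear co-repressors of Smad complexes. In the face the pathway is best known for fusion of the palatal shelves, which needs Tgfb3 in the medial edge epithelium, and for the growth and differentiation of the neural crest mesenchyme that makes the jaws and palate.

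The highest acetylated shares among the 10 genes belonged to the inhibitory Smads, and the smallest p of the stage test to the ligand Tgfb2. The shares are sums over a gene and its surroundings, not divided by gene length, which was 28.4 kb for Smad7, 69 kb for Smad6 and 387 kb for the longest gene, Ltbp1. Smad7 averaged 1031 ± 186 bp per Mb at e11.5, 1102 ± 315 at e13.5 and then 851 ± 185 in the e15.5 libraries (SD, n = 4, 3 and 3), and Smad6 averaged 954 ± 281, 904 ± 145 and 618 ± 234. The lowest averages were those of Tgfb2 at e11.5, 53.2 ± 61.4, and Tgfbr1 at e15.5, 72.8 ± 3.55. In tissue of mixed cells, fewer cells of a type with the mark and less mark per cell cannot be told apart. No gene passed the stage test at an adjusted p of 0.05: of 12323 genes with a peak in at least 3 libraries, 0 were called (0% called), while 1204 (9.77%) had an unadjusted p under 0.05. The test was an exact two-sided permutation test of the slope per embryonic day over the 4200 ways to assign stages to libraries, adjusted by Benjamini-Hochberg over all genes, and its smallest adjusted p was 0.21. Among the 10 genes, 2 had an unadjusted p under 0.05, Tgfb2 and Tgfb3, both with a positive slope, as found for 6.03% of all genes tested.

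**Figure D1:**
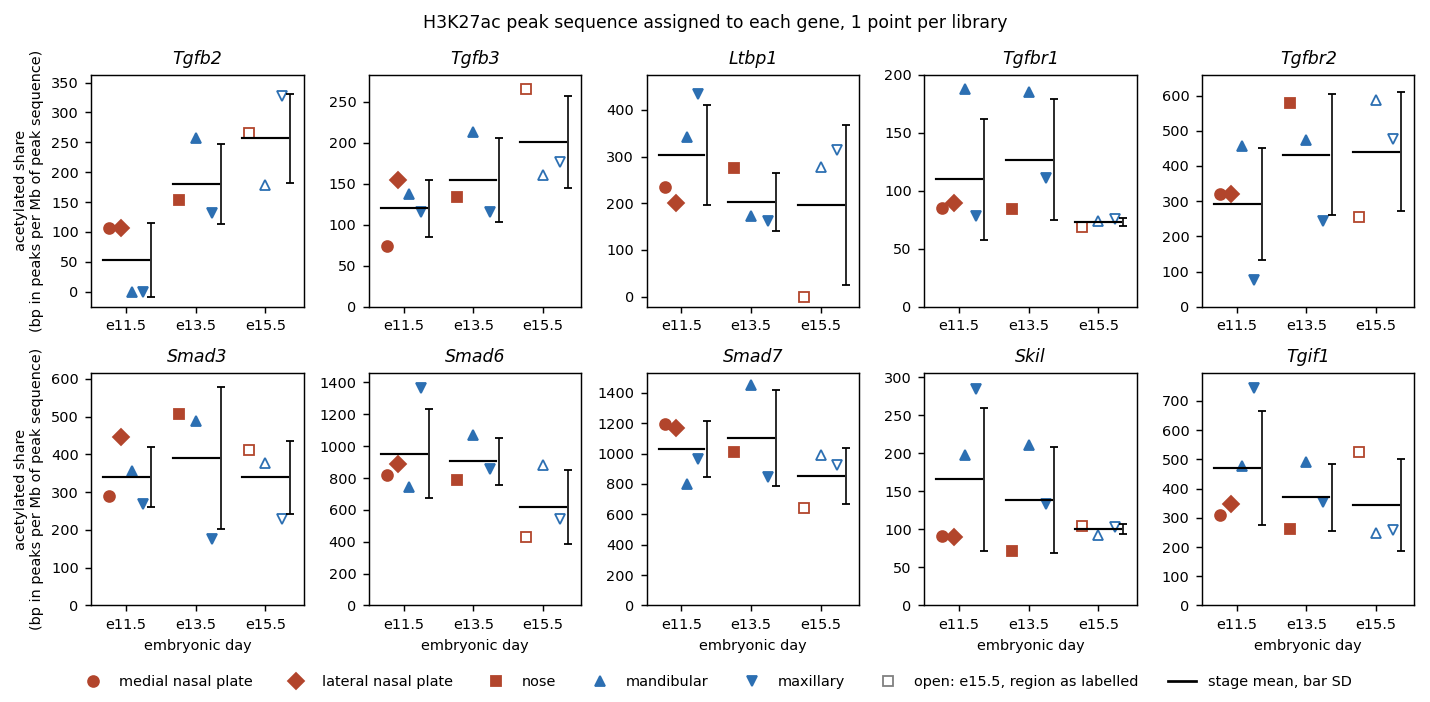
Acetylated share (bp in peaks per Mb of peak sequence, vertical axes) of each of the 10 genes in each library by embryonic day; symbols give the region, open symbols the e15.5 libraries with the region as labelled, horizontal lines the stage mean and bars the SD. Tgfb2 was at 0 in both jaw processes of e11.5 and between 178 and 327 in the 3 libraries of e15.5, and the libraries of the 3 stages overlapped for most other genes.

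Tgfb2 encodes one of the secreted TGF-beta ligands and lies at chr1:186622792-186705989 on the minus strand. Its acetylated share was 106 bp per Mb in the medial nasal plate and 107 in the lateral nasal plate at e11.5, and both the mandibular and the maxillary process of that stage had no peak. At e13.5 it was 153 in the nose, 257 in the mandibular and 132 in the maxillary process, and at e15.5 it was 265, 178 and 327 in the libraries labelled nose, mandibular and maxillary. Every library of e15.5 was above every library of e11.5, which held for 5.62% of all genes tested, and the e15.5 libraries averaged 257 ± 75 (n = 3) against 53.2 ± 61.4 at e11.5 (n = 4), a ratio of 4.83. The slope was 51.5 bp per Mb per day (exact permutation p = 0.00429, adjusted p = 0.275). At equal yield, with the top 6571 peaks of each library, the adjusted p was 0.0531, the lowest of a range up to 1.0 over all alternatives, and with only peaks of −log10 q of at least 2 the unadjusted exact p was 0.25. With the labelled region as a block, so that stages were compared only within nasal, mandibular or maxillary tissue, the slope was 53 (exact permutation p = 0.0139, adjusted p = 0.28). The 2 libraries without a peak were those with the least peak sequence at e11.5, with 15.52 and 10.5 Mb against 35.7 and 33.6 Mb in the nasal plates, and the part of yield in this result was not tested.

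For the 10 genes, a peak is counted at a start site when it lies in the merged region that holds the start of the gene. It need not cover the start itself. At the Tgfb2 start site the peaks were 3053 and 3592 bp wide in the nasal plates of e11.5, where the lateral plate had 2 peaks, and 5114, 3644 and 2808 bp in the nose, mandibular and maxillary process of e13.5. At e15.5 they were 3133, 4956 and 5336 bp in the libraries labelled nose, mandibular and maxillary. The other 6 regions of the gene were distal, more than 1 kb from any start site of any annotated gene, and each was present in 1 to 4 libraries. One in the gene body, 10.5 kb from the start, was present in the e13.5 nose and in the libraries labelled mandibular and maxillary at e15.5, and in none of e11.5. Another lay 95.4 kb from the start, beyond the end of the gene, and was present in the medial nasal plate of e11.5, the e13.5 nose and the same 2 libraries of e15.5. The 250 bases before the annotated start (RefSeq, GRCm38.p6, chr1:186705990-186706239, minus strand) and 300 bases at the centre of the stretch shared by the 3 libraries at 10.5 kb (chr1:186695503-186695802) are shown as the sequence of the promoter without a peak in 2 libraries of e11.5 and of the distal region found only at the later stages, with matches to the consensus sequences described further on in capitals. An exon of an antisense noncoding gene also overlaps the promoter window.
Tgfb2 promoter: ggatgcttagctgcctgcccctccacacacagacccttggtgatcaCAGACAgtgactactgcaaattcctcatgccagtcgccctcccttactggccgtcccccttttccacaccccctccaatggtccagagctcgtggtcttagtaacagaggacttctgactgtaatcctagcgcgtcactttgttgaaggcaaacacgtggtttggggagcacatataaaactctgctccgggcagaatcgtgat
Tgfb2 region at 10.5 kb: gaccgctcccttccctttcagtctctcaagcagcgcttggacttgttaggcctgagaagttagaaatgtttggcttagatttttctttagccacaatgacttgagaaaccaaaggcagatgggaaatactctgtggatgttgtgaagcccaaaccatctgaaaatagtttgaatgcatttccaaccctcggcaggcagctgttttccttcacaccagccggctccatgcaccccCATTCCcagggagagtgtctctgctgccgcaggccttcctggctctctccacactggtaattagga

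Tgfb3, the ligand of palatal fusion, lies at chr12:86056745-86079041 on the minus strand. Its acetylated share was 74, 154, 138 and 115 bp per Mb in the medial nasal plate, lateral nasal plate, mandibular and maxillary process of e11.5. It was 134, 213 and 116 in the nose, mandibular and maxillary process of e13.5, and 265, 161 and 177 in the libraries labelled nose, mandibular and maxillary at e15.5. The libraries of e15.5 averaged 201 ± 55.7 against 120 ± 34.7 at e11.5, and every one of them was above every e11.5 library, with the closest pair at 161 (e15.5) and 154 (e11.5). The slope was 20.1 bp per Mb per day (exact permutation p = 0.0383, adjusted p = 0.472), and at equal yield the adjusted p was 0.0531, again the lowest of a range up to 1.0. Without the library labelled nose at e15.5 the slope was 12.9 and the unadjusted exact p was 0.144. The start site had a peak in all 10 libraries, of 1202 bp in the e11.5 maxillary process and up to 4780 bp in the e15.5 library labelled mandibular. A distal region 56 kb from the start, within the body of its neighbour Ttll5, was present in the lateral nasal plate, the e13.5 nose and the e15.5 libraries labelled mandibular and maxillary.

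Ltbp1, the matrix protein that anchors latent TGF-beta, spans 387 kb at chr17:75005568-75392512. Its share was 234, 200, 343 and 435 bp per Mb in the medial nasal plate, lateral nasal plate, mandibular and maxillary process at e11.5, and 275, 173 and 162 in the nose, mandibular and maxillary process at e13.5. At e15.5 it was 277 and 314 in the libraries labelled mandibular and maxillary, and the library labelled nose had no peak anywhere at the gene. The stages overlapped, and the slope of −27.5 bp per Mb per day did not pass (exact permutation p = 0.25, adjusted p = 0.76). Of its 12 regions, 10 were distal, and 3 were found only in the e13.5 nose, as were 4206 of all 42346 regions. The main start site was marked in 9 libraries, with peaks of 1608 to 2943 bp, and a distal region 10.8 kb before it in 8. An alternative start site 174 kb into the gene had a peak in all 3 nasal libraries of e11.5 and e13.5 and in none of the 4 jaw libraries of those stages, and also in the e15.5 library labelled maxillary.

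The type I receptor gene Tgfbr1 (chr4:47353222-47414931) carried little more than its start-site region. Its share was 84.9, 89.4, 188 and 78 bp per Mb in the medial nasal plate, lateral nasal plate, mandibular and maxillary process of e11.5, and 84.4, 185 and 111 in the nose, mandibular and maxillary process of e13.5. In the e15.5 libraries labelled nose, mandibular and maxillary it was 68.8, 73.9 and 75.6, each below every e11.5 library, as held for 4.01% of all genes. The slope was −8.58 bp per Mb per day (exact permutation p = 0.345, adjusted p = 0.833), and the mandibular libraries of e11.5 and e13.5 stood above the rest. In base pairs the start-site peaks ran from 819 bp in the e11.5 maxillary process to 3153 bp in the e13.5 nose, and the libraries labelled mandibular at e15.5 and mandibular at e11.5 had 3034 and 2923 bp. The only other region, 3.36 kb before the start, was found in the e13.5 nose alone.

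The type II receptor gene Tgfbr2 (chr9:116084293-116175360, minus strand) held 13 regions, 11 of them distal. Its share was 319 bp per Mb in both nasal plates, 458 in the mandibular and 75 in the maxillary process of e11.5, and 579, 475 and 243 in the nose, mandibular and maxillary process of e13.5. At e15.5 it was 256, 588 and 477 in the libraries labelled nose, mandibular and maxillary. The stages overlapped, with a slope of 38.4 bp per Mb per day (exact permutation p = 0.233, adjusted p = 0.746). The e11.5 maxillary process, the library with the fewest peaks, was the only one without a peak at the start site and had a single 787 bp peak in the gene body. In the other 9 libraries the start-site peak was 1826 to 2462 bp at e11.5, 2852 to 3259 bp at e13.5 and 3278 to 3525 bp at e15.5. These widths are not divided by yield, and were neither tested for stage nor set against those of all genes. The region in most libraries after the start site lay 43.7 kb before it, was 3767 bp wide and was marked in 8 libraries, and it touches an exon of an annotated gene that is not protein-coding. Distal regions 58.8 kb into the gene and 78.1 kb before it had a peak in all 3 nasal libraries of e11.5 and e13.5 and in no jaw library of those stages, and the second was also present in the e15.5 library labelled mandibular. The 250 bases before its RefSeq start (GRCm38.p6, chr9:116175364-116175613, minus strand) are shown because the e11.5 maxillary library alone lacked this peak, and they hold none of the consensus sequences searched.
Tgfbr2 promoter: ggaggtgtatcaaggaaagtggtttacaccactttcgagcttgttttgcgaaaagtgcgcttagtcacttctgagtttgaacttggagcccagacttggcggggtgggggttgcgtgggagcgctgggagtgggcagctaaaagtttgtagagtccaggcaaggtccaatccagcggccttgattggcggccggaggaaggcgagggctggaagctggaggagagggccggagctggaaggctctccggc

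**Figure D2:**
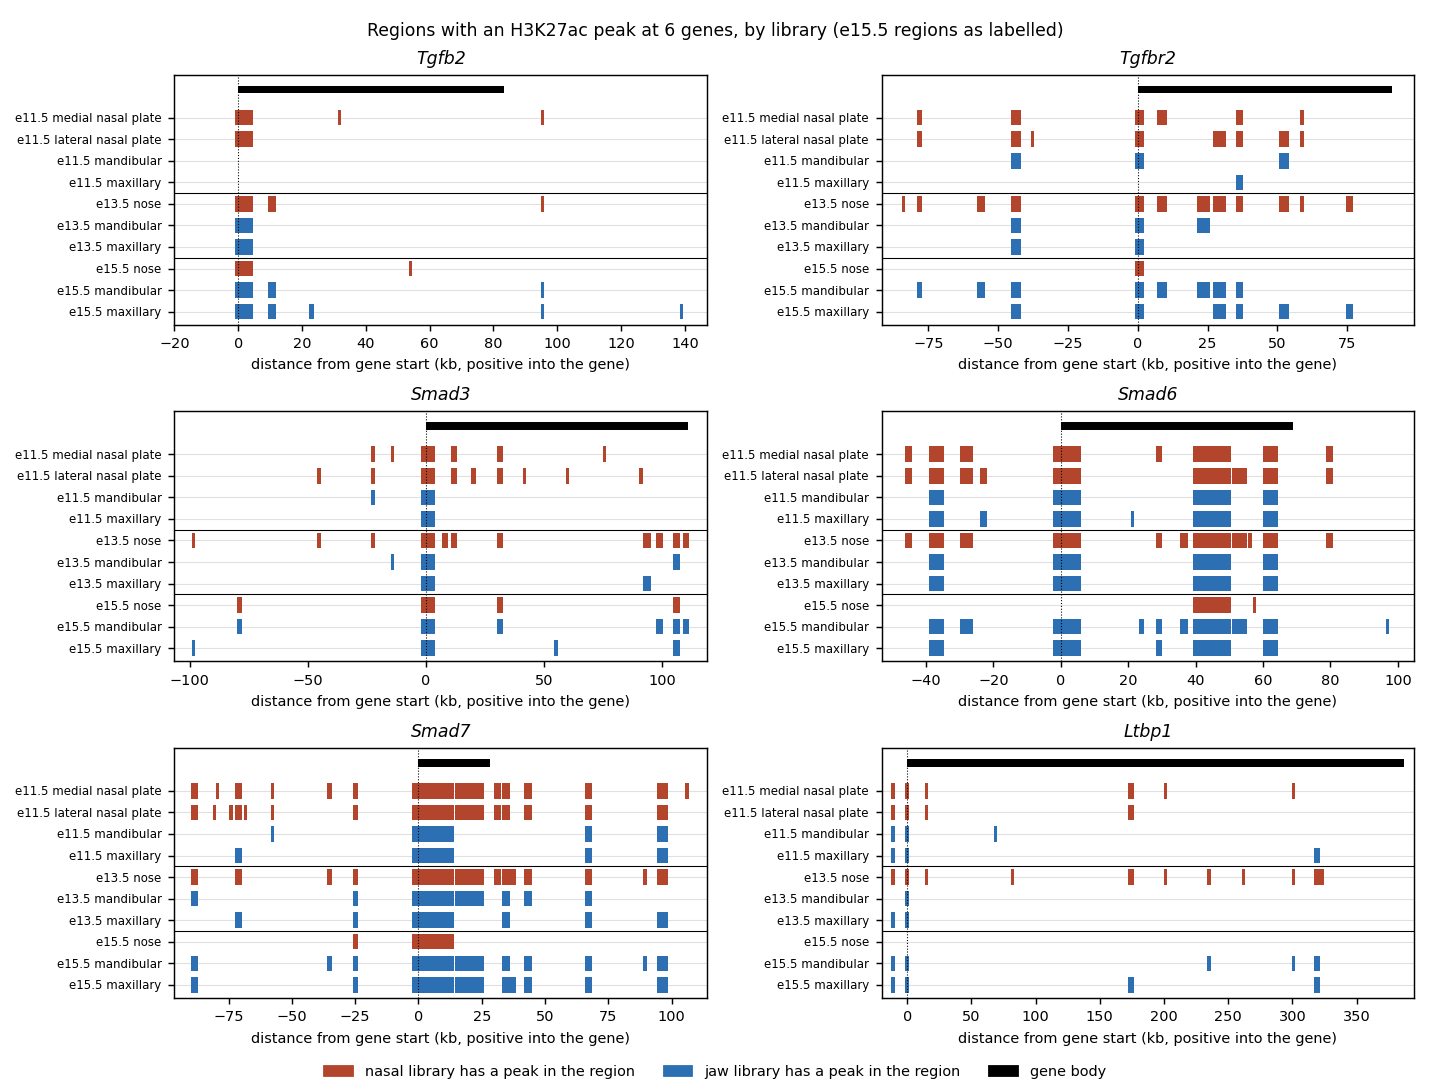
Regions with an H3K27ac peak at Tgfb2, Tgfbr2, Smad3, Smad6, Smad7 and Ltbp1 by library (rows, nasal in red and jaw in blue, e15.5 as labelled) against the distance from the gene start in kb (positive into the gene); the black bar is the gene body and regions too narrow to see are widened. Bars in a column are the same merged region, drawn at the merged width; the Smad6 region at 44.8 kb is filled in all 10 libraries, and the e13.5 nose has a peak in 70 of the 97 regions of all 10 genes.

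Smad3, the receptor-activated Smad of the list, lies at chr9:63646767-63757994 on the minus strand and had the most regions, 20, of which 15 were distal and 8 were found in 1 library each. Its share was 291, 447, 355 and 269 bp per Mb in the medial nasal plate, lateral nasal plate, mandibular and maxillary process of e11.5, and 507, 489 and 175 in the nose, mandibular and maxillary process of e13.5. In the e15.5 libraries labelled nose, mandibular and maxillary it was 412, 377 and 229. The means of the 3 stages, earliest first, were 341 ± 79.8, 390 ± 187 and 340 ± 97.3, and the slope of 0.779 bp per Mb per day had no steady sign across alternative settings (exact permutation p = 0.975, adjusted p = 0.999). The start site was marked in all 10 libraries, with peaks of 2684 to 5598 bp.

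The regions of Smad3 with a called peak differed between libraries, within a stage as well as between stages. The region 106 kb from the start, near the end of the gene, was marked in each of the 3 e15.5 libraries, in none of e11.5, and in the e13.5 nose and mandibular process. It was the only region of the 10 genes with this pattern (1 of 97), which 270 of 42346 regions (0.638%) showed, and its nearest protein-coding start site is that of Aagab, the neighbour beyond the Smad3 end. At equal yield, with the top 6571 peaks of each list, 1 region again had the pattern, but it was at Tgfb2 and not at Smad3. None of the 97 regions had no peak in e15.5 and a peak in every e11.5 library, a pattern of 0.463% of all regions. With only peaks of −log10 q of at least 2, 0 regions of the 10 genes were present in all e15.5 libraries and absent from e11.5. At Smad3 the nearest to the reverse was a distal region 22.6 kb before the start, marked in 3 of 4 libraries of e11.5, 1 of 3 of e13.5 and 0 of 3 of e15.5. A distal region 79 kb before the start was marked in 2 libraries of e15.5 and in no other. The centres of the regions at 106 kb (chr9:63651205-63651504, GRCm38.p6, minus strand, no annotated exon in the window) and at −22.6 kb (chr9:63780330-63780629) are shown as the pair of Smad3 regions most different between stages in opposite directions, and neither holds a consensus sequence searched.
Smad3 region at 106 kb: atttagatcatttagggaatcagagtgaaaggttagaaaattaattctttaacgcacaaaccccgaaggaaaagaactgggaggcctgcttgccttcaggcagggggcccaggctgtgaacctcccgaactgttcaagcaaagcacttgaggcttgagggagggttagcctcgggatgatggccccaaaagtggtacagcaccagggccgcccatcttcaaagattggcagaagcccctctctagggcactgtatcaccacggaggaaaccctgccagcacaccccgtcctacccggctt
Smad3 region at -22.6 kb: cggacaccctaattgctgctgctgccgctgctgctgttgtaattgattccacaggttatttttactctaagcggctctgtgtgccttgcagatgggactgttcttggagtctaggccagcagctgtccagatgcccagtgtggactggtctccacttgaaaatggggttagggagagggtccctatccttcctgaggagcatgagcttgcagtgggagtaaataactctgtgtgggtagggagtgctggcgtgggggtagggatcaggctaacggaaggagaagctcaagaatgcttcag

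Smad6, an inhibitory Smad best known for restraining BMP receptors, is the next protein-coding gene after Smad3, 195 kb away at chr9:63953076-64022059 on the minus strand. Its share was 822, 886, 741 and 1366 bp per Mb in the medial nasal plate, lateral nasal plate, mandibular and maxillary process of e11.5, 788, 1067 and 858 in the nose, mandibular and maxillary process of e13.5, and 431, 881 and 544 in the e15.5 libraries labelled nose, mandibular and maxillary. In every library the gene stood above 98.3% or more of all protein-coding genes. The slope was −81.3 bp per Mb per day (exact permutation p = 0.0974, adjusted p = 0.579), and the e15.5 library labelled mandibular lay within the e11.5 range. Of its 16 regions, 14 were distal. One of these, 11291 bp wide and 44.8 kb into the gene body, had a peak in all 10 libraries and was the only distal region of the 10 genes to do so, against 245 of 27439 distal regions of the series (0.893%). Others, at 62.3 kb and at −36.9 kb, were marked in 9 libraries each, all but the e15.5 library labelled nose.

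The Smad6 start site itself was marked in 9 libraries and not in the library labelled nose at e15.5, which had 2 peaks, both in the gene body. Its start-site peaks summed to 7496, 7843, 2457 and 4088 bp in the medial nasal plate, lateral nasal plate, mandibular and maxillary process of e11.5, 7665, 6074 and 4163 bp in the nose, mandibular and maxillary process of e13.5, and 7745 and 6478 bp in the other e15.5 libraries, labelled mandibular and maxillary. The nasal libraries of e11.5 and e13.5 were all above the jaw libraries in this width in bp, with yields of 33.6 to 49.4 Mb against 10.5 to 21.3 Mb. The promoter without a peak in 1 library (RefSeq, GRCm38.p6, chr9:64022060-64022309, minus strand) and the centre of the region found in all 10 (chr9:63973344-63973643) are shown.
Smad6 promoter: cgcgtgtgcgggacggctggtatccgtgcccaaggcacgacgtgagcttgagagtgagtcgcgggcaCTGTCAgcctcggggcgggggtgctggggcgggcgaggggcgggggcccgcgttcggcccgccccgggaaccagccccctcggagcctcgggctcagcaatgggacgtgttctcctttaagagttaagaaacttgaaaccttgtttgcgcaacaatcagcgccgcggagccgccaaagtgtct
Smad6 region at 44.8 kb: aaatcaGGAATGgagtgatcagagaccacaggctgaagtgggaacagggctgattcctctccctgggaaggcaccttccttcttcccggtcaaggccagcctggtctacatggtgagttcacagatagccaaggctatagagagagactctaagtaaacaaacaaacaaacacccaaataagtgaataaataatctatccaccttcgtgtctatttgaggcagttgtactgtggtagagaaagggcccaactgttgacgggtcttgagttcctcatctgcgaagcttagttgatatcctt

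Smad7, the inhibitory Smad that blocks the TGF-beta type I receptor, is a short gene of 28.4 kb (chr18:75367529-75395935) with the most peaks of the list, 95 over the 10 libraries. Its share was 1194, 1169, 800 and 961 bp per Mb in the medial nasal plate, lateral nasal plate, mandibular and maxillary process of e11.5, and 1009, 1453 and 843 in the nose, mandibular and maxillary process of e13.5. At e15.5 it was 640, 988 and 927 in the libraries labelled nose, mandibular and maxillary. In each library it stood above 99.3% or more of all protein-coding genes, and the stages overlapped, with a slope of −41.4 bp per Mb per day (exact permutation p = 0.38, adjusted p = 0.852). Its start-site region merged to 16474 bp, and the peaks there summed to 4969 bp in the e11.5 maxillary process and up to 15609 bp in the e13.5 nose. Of 19 regions, 16 were distal and spread from 88.4 kb before the start to 106 kb after it, over the bodies of Dym on one side and Ctif on the other. One within Ctif, 67 kb from the start, was marked in 9 libraries, and others at 96.3 kb and at −24.9 kb in 8 each. The region at −24.9 kb was marked in both nasal plates but neither jaw process of e11.5, and in all 6 later libraries. The regions at −71.1 kb and −57.6 kb were each marked in 3 of 4 libraries of e11.5, in 2 and 0 of the 3 of e13.5, and in none of e15.5.

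The co-repressor genes Skil and Tgif1 carried most of their acetylation at the start site. Skil (chr3:31095058-31122577) had a single region, present in all 10 libraries. Its share was 91, 89.5, 198 and 285 bp per Mb in the medial nasal plate, lateral nasal plate, mandibular and maxillary process of e11.5, 71.8, 211 and 133 in the nose, mandibular and maxillary process of e13.5, and 105, 92.3 and 103 in the e15.5 libraries labelled nose, mandibular and maxillary. Tgif1 (chr17:70844205-70853546, minus strand), a gene of 9.34 kb, was covered over nearly its whole length by a region of 10407 bp. Its peak there was 6760 to 10213 bp wide in the 10 libraries, wider than 98.6% or more of the peaks in each, and by −log10 q above 91.0% or more of them. Its share was 311, 349, 479 and 743 bp per Mb in the medial nasal plate, lateral nasal plate, mandibular and maxillary process of e11.5, 263, 491 and 355 in the nose, mandibular and maxillary process of e13.5, and 527, 249 and 259 in the e15.5 libraries labelled nose, mandibular and maxillary. The slopes were −16.4 for Skil (exact permutation p = 0.237, adjusted p = 0.752) and −32.2 bp per Mb per day for Tgif1 (exact p = 0.314, adjusted p = 0.814), and in both genes the stages overlapped.

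**Figure D3:**
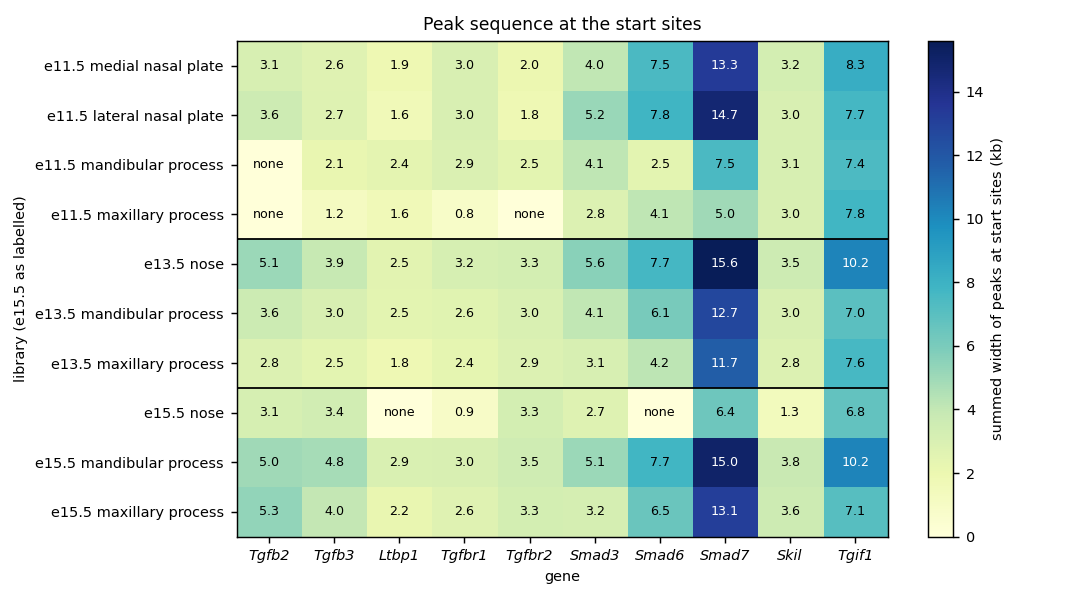
Summed width in kb of the peaks at the start sites of each gene (columns) in each library (rows, e15.5 as labelled), by colour and number; none means no peak. The merged region holding the start site had a peak in 95 of 100 gene and library pairs. Smad7 and Tgif1 had the widest medians over libraries, 12930 and 7618 bp.

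Across the 10 genes the merged region holding the start site had a peak in 95 of 100 gene and library pairs. The 5 without a peak were Tgfb2 in the mandibular and the maxillary process of e11.5, Tgfbr2 in the maxillary process of e11.5, and Smad6 and Ltbp1 in the library labelled nose at e15.5. The same count over all genes was not made. Of the 97 regions, 77 (79.4%) were distal, against 64.8% of all regions, and 31 (32.0%) were found in 1 library, against 44.5%. The e13.5 nose, the library with the most peaks, had a peak in 70 of the 97 regions (72.2%), against 58.9% of all regions. Of the 97, 8 were found in it alone, as were 4206 of all 42346 regions.

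The comparison of nasal with jaw tissue asked whether these genes are marked differently along the face, and used the 3 nasal and 4 jaw libraries of e11.5 and e13.5. Skil averaged 84.1 ± 10.7 bp per Mb in nasal and 207 ± 62.6 in jaw libraries, and Tgif1 averaged 308 ± 43.2 in nasal and 517 ± 163 in jaw libraries (SD, n = 3 and 4). For both, every nasal library was below every jaw library, as for 18.5% of all genes, with differences of −123 and −209 bp per Mb (exact permutation p = 0.0571 each, adjusted p = 0.201 each). In base pairs not divided by the library's peak sequence the differences turned round, with means of 3267 bp in nasal and 2972 bp in jaw libraries for Skil, and 11943 bp in nasal and 7442 bp in jaw libraries for Tgif1. The nasal libraries held 33.6 to 49.4 Mb of peak sequence against 10.5 to 21.3 Mb in the jaw libraries, so region and yield cannot be told apart here. At equal yield the differences were −33 for Skil (exact permutation p = 0.257, adjusted p = 0.92) and 5.79 for Tgif1 (exact p = 0.886, adjusted p = 1). Of the other genes, Smad6 averaged 832 ± 49.4 in nasal and 1008 ± 274 in jaw libraries, and Smad3 averaged 415 ± 112 in nasal and 322 ± 134 in jaw libraries, and neither passed (exact permutation p = 0.4 and 0.371). None of the 10 genes had an unadjusted p under 0.05, against 16.7% of all genes (9.4% with nasal higher and 7.3% with nasal lower), and by the adjusted p 0 of 12323 genes passed (0% called, smallest adjusted p 0.171, smallest p that 35 splits allow 0.0286). This count of 0 depended on the measure. In undivided base pairs 6 of the 10 genes had an exact permutation p of 0.0286 (adjusted p = 0.12), against an unadjusted p under 0.05 in 23.9% of all genes, and these were Tgfbr2, Smad3, Smad6, Smad7, Ltbp1 and Tgif1. In number of peaks 6 genes had this exact p too (adjusted p = 0.148), against 19.3%, with Tgfb2 in the place of Smad6. All of these were higher in the nasal libraries, which had more peaks and more peak sequence. With only peaks of −log10 q of at least 2, Smad7 alone had this exact p, 287 bp per Mb higher in nasal libraries (adjusted p = 0.2), against 14.3%.

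By region, 11 of the 97 (11.3%) had a peak in every nasal and no jaw library of e11.5 and e13.5, against 6.01% of all regions, and no region of the series had the reverse pattern. They belonged to 6 genes. Smad6 had 3 of them, at 79.7, −27.9 and −45.2 kb from its start, Smad3 had 2, at 31.1 and 11.7 kb, and Tgfbr2 had the 2 named above. Ltbp1 had 2, at 14.8 and 174 kb, and Smad7 and Tgif1 had 1 each, at 31.2 and −19.5 kb. Of the 11, those of Smad6 at −27.9 kb, Smad3 at 31.1 kb, Tgfbr2 at −78.1 kb and Ltbp1 at 174 kb were also marked in a library labelled mandibular or maxillary at e15.5. For Smad6, Smad3 and Tgfbr2 this was the library labelled mandibular, whose peak list is named for the nose, and for Ltbp1 that labelled maxillary, whose list is named for the mandibular process. The Smad3 region at 31.1 kb was marked in the library labelled nose as well. The higher number of peaks in the nasal lists moves with this count, and its part was not tested.

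A list of 47 other genes of TGF-beta and activin signalling gives the surroundings of these genes. Of these, 39 had a peak in at least 3 libraries, and none passed the stage test by the adjusted p. By the unadjusted p, 5 had a positive slope under 0.05 and 3 a negative one, against 6.03% and 3.74% of all genes, and 24 slopes were positive and 15 negative. The median slope was 8.09% of the gene's mean share per day in the list, −6.07% in the 10 genes and 1.65% in all genes tested. By the rule of the 4 largest relative slopes in each direction, the positive ones included Cdkn1a, a cell cycle inhibitor and Smad target, the activin type I receptor gene Acvr1b and Ltbp3. Ltbp3, another latent TGF-beta binding protein, averaged 6.26 ± 12.5, 79.6 ± 23.6 and 137 ± 68.9 bp per Mb at the 3 stages, earliest first (exact permutation p = 0.000714, adjusted p = 0.257). Ltbp4 had 13.6 ± 18.3, 104 ± 30.6 and 122 ± 29.7 (exact p = 0.00286, adjusted p = 0.257). For both genes every e15.5 library was above every e11.5 library, as held for 5.62% of all genes tested. In the list 4 genes had this pattern and 4 had the reverse, which held for 4.01% of all genes tested. Acvr1b averaged 6.23 ± 7.24, 83.1 ± 95.3 and 192 ± 123 in that order (exact permutation p = 0.016, adjusted p = 0.365). Cdkn1a averaged 2.32 ± 4.65, 24.6 ± 42.5 and 89.1 ± 78.7 (exact permutation p = 0.0667, adjusted p = 0.537). Cdkn1a had a peak in only 4 libraries, and not every e15.5 library was above every e11.5 library.

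The most negative relative slopes of the list were those of the ligand Gdf11, the matrix protein gene Tgfbi and the receptor genes Acvr2b and Acvr1c. Gdf11 averaged 118 ± 42.9, 72.7 ± 12.3 and 27.2 ± 18.8 bp per Mb in the same order (exact permutation p = 0.00333, adjusted p = 0.257). Tgfbi averaged 493 ± 108, 288 ± 181 and 138 ± 121 (exact p = 0.00905, adjusted p = 0.306). Acvr2b averaged 101 ± 58.2, 77.5 ± 29.4 and 23.3 ± 20.2, and Acvr1c, at 8.37 ± 10.3, 12.6 ± 12.3 and 0 ± 0, was low throughout. Of the other ligands, Tgfb1 had a peak in 1 library, and Nodal and Mstn in none. Smad4, the common partner of Smad3, had a peak in 6 libraries and Smad2 in 9. Ltbp4 is named in addition to the rule, after its values were seen.

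**Figure D4:**
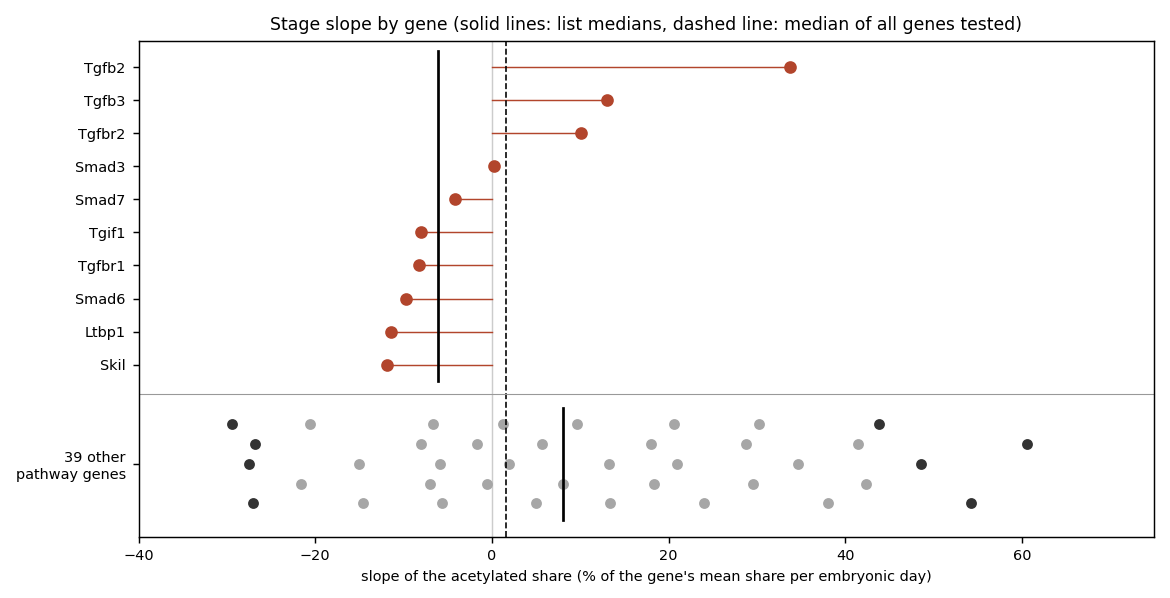
Slope of the acetylated share as a percentage of the gene's mean share per embryonic day (horizontal axis) for the 10 genes, 1 row each, and for the 39 other pathway genes, those with the 4 largest slopes in each direction in dark grey; solid lines are list medians and the dashed line is the median of all genes tested. Tgfb2, at 33.7% per day, lies furthest to the right of the 10 genes, and 6 of them lie left of 0.

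The sequences were searched on both strands for 6 short consensus sequences, as a description with no test. They were the Smad palindrome GTCTAGAC, the CAGA box core CAGACA, the GC-rich Smad element GGCGCC, the AP-1 site TGANTCA, the Tgif core TGACAG and the TEAD core GGAATG, and overlapping matches of different motifs were each counted. The distal regions of the 10 genes, 168 kb in all, held CAGACA 1.42 times per kb against 1.27 in all distal regions, TGACAG 0.821 against 0.794, GGAATG 0.708 against 0.668, and TGANTCA 0.309 against 0.328. In windows of 300 bases at the centre of distal regions, CAGACA was found in 23 of 66 windows of these genes and in 29.6% of 23443 windows of the series. TGACAG was found in 15 of 66 and in 20.0%, GGAATG in 13 of 66 and in 19.5%, TGANTCA in 7 of 66 and in 9.5%, and GGCGCC in 1 of 66 and in 2.24%. The palindrome was found in 0 of 66 and in 0.277% of all windows. Of the 10 genes, 7 were in the RefSeq promoter table, with 13 promoter windows. CAGACA was in 5 of these 13 windows, at Ltbp1, Tgfb2, Tgfbr1 and Tgif1, against 17.1% of 32851 promoter windows of the same length, TGACAG at Smad6 (15.9% of all) and GGCGCC at Tgfbr1 (9.59% of all). The TEAD core, the AP-1 site and the palindrome, which are in 12.6%, 6.75% and 0.167% of all promoter windows, had no match in these 13. In the sequences printed above, the capitals mark CAGACA in the Tgfb2 promoter, TGACAG read on the other strand in the Smad6 promoter, and GGAATG in the Tgfb2 region at 10.5 kb, on the other strand, and in the Smad6 region at 44.8 kb.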

How the data were processed

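The 10 deposited H3K27ac peak lists of wild-type mouse face tissue were analysed, without the 10 input samples. Tools named in the submitters' processing notes are BWA 0.7.7, SAMtools 0.1.19, and MACS2 2.2.4, with the build mm10, and the settings for the mouse libraries are not given in the sources used here. The authors called broad peaks per sample, and each deposited list gives a score, the fold over background and −log10 values of p and q, computed within that list. Only the q-values were used, to rank and filter peaks of 1 list, and none had a −log10 q under 1.30. Signal below the calling threshold is not seen, and read depth was not known.

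Peaks on the assembled chromosomes (144852 of 144896) were assigned to GENCODE vM21 protein-coding genes, and peak sequence per gene was divided by the library's total. The stage slope and the nasal minus jaw difference were tested by exact two-sided permutation over libraries, with Benjamini-Hochberg adjustment over 12323 genes and a threshold of 0.05. The procedures were tested on simulated data. Alternatives were peaks of −log10 q of at least 2, the top 6571 peaks of every library, other rules for assigning peaks (nearest start site only, or 10 kb), other measures (number of peaks, undivided base pairs, log2 with a pseudocount of 1 bp per Mb), no filter on genes, e15.5 against e11.5 only, leaving out each library, and, added after seeing the data, blocks for region or stage. Samples were grouped by their labels. The genes and lists were chosen with earlier results of these data known. All 10 genes are named, and from the pathway list the 4 with the largest slope relative to the mean in each direction, of which 1 is not reported here. The software was bedtools 2.31.1, samtools 1.23.1 and Python 3.11.15 (matplotlib 3.10.9, pandas 2.3.3, numpy 2.4.6).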

Additional observations from a re-analysis of the deposited data

Results flagged for a closer look

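The acetylated share of Tgfbr1 in the mandibular process of e11.5, 188 bp per Mb, was far from the other libraries of its stage, which had 84.9, 89.4 and 78. Its gap to the nearest library was 0.897 of the range of the group. The cut-off used for such gaps is passed by chance in about 1 in 20 groups. In all 20 groups were looked at, and they share libraries. In undivided base pairs the mandibular library had 2923 bp, against 3032, 3004 and 819 bp in the medial nasal plate, lateral nasal plate and maxillary process. The peak sequence of these libraries was 15.52 Mb, against 35.71, 33.61 and 10.5 Mb. The part of yield in this gap was not tested.

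For Ltbp1 the difference between e13.5 and e11.5 had opposite signs in the face regions. It was 58 bp per Mb in nasal libraries, where the nose of e13.5 was above both nasal plates of e11.5, and −221 in jaw libraries, where both of e13.5 were below both of e11.5. The difference between these changes was not tested. All 10 genes were compared for such opposite moves, and the same count over all genes was not made. The e13.5 nose had the most peak sequence of any library, 49.37 Mb, and the part of yield was not tested.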

How the results depend on the processing

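The acetylated shares rest on called peaks, and a gene with few or weak peaks in the low-yield lists could not be told from one without the mark. By the exact permutation test with Benjamini-Hochberg adjustment, 0 genes passed the stage test in 19 of 20 alternatives, and 42 of 7692 passed when every library was limited to its top 6571 peaks, with none of the 10 genes among them. Among the 19 was e15.5 against e11.5, where 35 assignments gave no p below 0.0286, so its 0 was all but set beforehand. With a library left out the smallest p of the stage test was 0.000794 or 0.00119, against 0.000238 in the main test. A 0 in these runs therefore says little about stability. The nasal against jaw comparison had 0 genes in all alternatives with a test. With 35 splits no p is below 0.0286, so an adjusted p under 0.05 needed most genes to reach that floor. With 1 library left out the smallest p it can give is above 0.05. These counts of 0 therefore do not show that the result is stable. The slopes of Tgfb2, Tgfb3, Tgfbr2, Smad6, Skil and Tgif1 kept their direction in all 20 alternatives, but not their size. With a library left out, Tgfb2 was between 44.7 and 61.1 bp per Mb per day, Tgfb3 between 12.9 and 24.3, Tgfbr2 between 18.8 and 61.1, Smad6 between −106 and −49.5, Skil between −22.9 and −6.54, Tgif1 between −53.7 and −8.68, Ltbp1 between −42.2 and −7.62, Smad7 between −64.2 and −12 and Tgfbr1 between −12 and −2.83. The values nearest 0 came without the e11.5 maxillary library for Tgfbr2, Smad6, Skil and Tgif1, without the e15.5 library labelled nose for Ltbp1 and Smad7, and without the e11.5 mandibular library for Tgfbr1. At equal yield Tgfbr2 had 6.24.

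The count of regions of the 10 genes marked in all e15.5 and no e11.5 libraries was 1 at equal yield, at Tgfb2 in place of Smad3, 0 at −log10 q of at least 2 and 1 to 2 with a library left out. Without the e15.5 library labelled nose the second was at Tgfb2, and without that labelled maxillary another at Smad3. The reverse count was 3 at equal yield, at Smad6 and Smad7, 1 when 50% of a region had to be covered, at Smad6, and 0 to 2 with a library left out, at Smad7 without the e11.5 mandibular library and at Smad3 and Smad7 without the e11.5 maxillary one. The cause was not tested.

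Some slopes changed sign. That of Smad3 was −22.2 at −log10 q of at least 2, −5.86 at equal yield, −26.1 by nearest start site only, −0.00371 on the log2 scale, −1.25 as e15.5 minus e11.5, and between −6.27 and 14.9 with a library left out. Smad7 had 15.7 with the 10 kb rule and 287 in undivided base pairs per day, Ltbp1 had 292 in undivided base pairs, and Tgfbr1 had 0.087 in number of peaks per day.

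The nasal minus jaw differences changed sign more often, 24 of 180 times. In undivided base pairs they were 2602 for Tgfb3, 1218 for Tgfbr1, 17862 for Smad6, 295 for Skil, 5591 for Ltbp1 and 4501 for Tgif1. In number of peaks they were 1 for Tgfb3, 0.333 for Tgfbr1, 4.83 for Smad6, 5.42 for Ltbp1 and 1.67 for Tgif1. At equal yield they were −19.4 for Tgfb2, 20.0 for Tgfb3, 24.6 for Tgfbr1, −49.1 for Smad3, 373 for Smad6 and 5.79 for Tgif1. Smad3 had −24.6 at −log10 q of at least 2, Smad7 −81.3 with the 10 kb rule, and with e15.5 included as labelled Tgfb3 had 3.35 and Tgfbr2 −17.7. With a library left out, Tgfb2 ranged between −7.47 and 78.1 and Ltbp1 between −81.0 and 9.92.

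No paired analysis was possible by replicate number, because the labels give none. Fits with the labelled region as a block for the stage slope, and with stage as a block for nasal against jaw, were chosen after seeing the data. The first had 0 genes by the adjusted p (1411 at an unadjusted exact permutation p under 0.05 and a smallest p of 0.00231 from 432 assignments), with Tgfb2 and Tgfb3 again the members under 0.05. It uses the regions of e15.5 as labelled. The second also had 0, and cannot pass, since 18 assignments give no p below 0.0556. Neither turned a direction among the 10 genes.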
